A study of Homo sapiens with 15 samples.

Results

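The human KRAB-type and other C2H2 zinc finger genes of chromosome 19 were examined in the RNA of condensates pelleted from cytosolic extract of U2OS cells, a human osteosarcoma line. Members were the protein-coding genes on chromosome 19 whose symbol is ZNF followed by a digit. Of 251 such genes in the count files, 194 were kept and 57 were not. A kept gene reached 10 counts or more in 2 or 3 replicates of every one of the 5 conditions. The rule used names, position and a minimum count, and no difference between conditions.

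The study compared RNA from 4 kinds of pellet with RNA of the extract itself, in 15 libraries, 3 labelled biological replicates per condition. Each condition used cytosolic extract of U2OS cells labelled wild type, while the study's text describes the condensates as marked with YFP-tagged G3BP1, a stress granule scaffold protein. The input was extract that was not pelleted, and no reaction is given for it. A difference between pellet and input can thus come with the reaction as well as with pelleting. These were not told apart. The pellets came from in vitro translation reactions of 2 h at 37 °C that were left untreated (mock) or given 250 nM dsRNA, which activates the kinase PKR, 2 µg/ml silvestrol, which blocks the RNA helicase eIF4A, or 1% PEG, a crowding agent. The pellet of a centrifuged reaction holds whatever sediments, so a transcript in it was not shown to lie in a condensate. All samples were one cell line in one kind of extract. All libraries were made from poly(A) RNA, and no library measured translation, so the level of translation of these mRNAs was not examined here.

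Library totals ran from 15341973 to 46939993 counts, with the 3 PEG libraries at 15341973 to 25675182 and the other 12 at 23101982 or more. The markers of an osteosarcoma or mesenchymal line RUNX2, SPARC, COL1A1, VIM, FN1 and THY1 were present in every library, with medians of 52 to 1280 CPM (a gene's counts relative to its TMM-scaled library total), whereas COL1A2 and TWIST1 were at or near 0, with medians of 0.177 and 0.0213 CPM. The epithelial keratins KRT8 and KRT18 were also present, at medians of 400 and 198 CPM, with EPCAM at 8.45 and CDH1 at 0.396 CPM, while the hepatocyte marker ALB and the blood marker CD3E had a median of 0. The 194 members took 0.229% to 0.278% of the counts in the 12 libraries other than PEG and 0.172% to 0.201% in the 3 PEG libraries. A CPM is a share of a library, so none of the values below says how much RNA a pellet held.

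C2H2 zinc finger proteins bind DNA through tandem fingers, each folded around a zinc ion held by a pair of cysteines and a pair of histidines. Many of them carry a KRAB domain, which recruits the corepressor TRIM28 and with it the histone methyltransferase SETDB1 to silence transposable elements and other loci. Their genes expanded by tandem duplication, and chromosome 19 holds the largest clusters in the human genome, so neighbours are often close relatives.

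The finger-coding stretches of the members differed widely in base composition, and the examples below belong to the genes on which the results turn. Each is 147 bases of coding exon, from the first zinc-binding cysteine codon of one finger to the last zinc-binding histidine codon of the next, written 5′ to 3′ on the gene's strand with the codons of the zinc-binding cysteines and histidines in capitals (GRCh38, GENCODE 29 coding transcripts). ZNF865 (chr19:55614294-55614440, plus strand) and ZNF444 (chr19:56159758-56159904, plus strand) were higher in the mock, dsRNA and silvestrol pellets than in input, and ZNF700 (chr19:11948610-11948756, plus strand) was too, although it is AT-rich. ZNF112 (chr19:44328450-44328596, minus strand) and ZNF222 (chr19:44032113-44032259, plus strand) were lower in those pellets.
ZNF865: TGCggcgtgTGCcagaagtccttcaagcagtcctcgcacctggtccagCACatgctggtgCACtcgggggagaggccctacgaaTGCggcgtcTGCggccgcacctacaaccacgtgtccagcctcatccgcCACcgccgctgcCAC
ZNF444: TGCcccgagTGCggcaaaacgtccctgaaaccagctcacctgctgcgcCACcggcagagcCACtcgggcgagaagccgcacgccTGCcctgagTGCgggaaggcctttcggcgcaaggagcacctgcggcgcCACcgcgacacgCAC
ZNF700: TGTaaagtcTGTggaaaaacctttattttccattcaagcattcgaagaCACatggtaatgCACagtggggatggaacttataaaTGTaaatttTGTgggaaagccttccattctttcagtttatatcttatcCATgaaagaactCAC
ZNF112: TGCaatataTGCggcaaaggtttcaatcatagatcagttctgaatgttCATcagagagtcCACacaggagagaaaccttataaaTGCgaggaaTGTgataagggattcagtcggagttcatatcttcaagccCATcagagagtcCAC
ZNF222: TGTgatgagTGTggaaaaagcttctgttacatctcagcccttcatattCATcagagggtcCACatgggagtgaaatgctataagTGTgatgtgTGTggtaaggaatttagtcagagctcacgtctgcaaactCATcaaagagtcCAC

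The stretch of ZNF865 was 66.7% G or C, with 98% G or C at the last position of its codons, and that of ZNF444 was 70.1% and 87.8%. The corresponding values were 42.2% and 36.7% in ZNF112, 43.5% and 42.9% in ZNF222, and 35.4% and 30.6% in ZNF700. Over the 188 members with such a stretch the GC content ran from 32% to 76.2% with a median of 41.5%, and the last codon position from 22.4% to 100% with a median of 38.8%. ZNF222 and ZNF112, of the same cluster, differed at 43 of 147 bases, and ZNF865 and ZNF444 at 66.

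A further set is shown because its members bear on the dsRNA libraries and on the limits of read assignment. ZNF417 (chr19:57909408-57909554, minus strand), ZNF587 (chr19:57859136-57859282, plus strand) and ZNF587B (chr19:57841404-57841550, plus strand) are close relatives in the cluster nearest the end of the long arm.
ZNF417: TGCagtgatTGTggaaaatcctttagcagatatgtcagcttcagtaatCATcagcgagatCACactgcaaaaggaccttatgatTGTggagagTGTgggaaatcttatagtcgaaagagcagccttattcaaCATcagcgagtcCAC
ZNF587: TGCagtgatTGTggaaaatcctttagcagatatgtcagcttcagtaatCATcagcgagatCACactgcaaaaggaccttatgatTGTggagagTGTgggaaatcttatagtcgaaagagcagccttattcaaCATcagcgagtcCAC
ZNF587B: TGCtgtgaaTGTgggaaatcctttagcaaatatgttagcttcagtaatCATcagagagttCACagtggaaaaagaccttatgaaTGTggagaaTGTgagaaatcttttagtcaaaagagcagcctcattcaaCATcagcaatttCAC

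The stretches of ZNF417 and ZNF587 differed at 0 of 147 bases, and their whole coding regions were 99.1% identical, so the counting of reads between these genes is uncertain. ZNF587B differed from ZNF587 at 19 of 147 bases and had a coding identity of 72.4%. ZNF324B is 91.6% identical to ZNF324 and ZNF799 is 92.6% identical to ZNF443 over the coding region, and the same uncertainty holds for them. Exons of 60 members overlapped another gene on the same strand and exons of 64 a gene on the opposite strand, with 88 free of either.

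As a group the 194 mRNAs were AU-rich and of low level. The median GC content of their exons was 44% (range 34.7% to 71.1%), against 48.5% over the protein-coding genes tested and 59.9% in the other protein-coding genes of chromosome 19, and 152 members lay under the median of all genes tested, 48.7%. Their median input level was 7.81 CPM against 30.1 CPM over the protein-coding genes tested, at a median exon length of 4992 nt against 5075 nt. The AU-rich pentamer ATTTA occurred at a median of 1.17 per kb of transcript against 0.933 per kb in the protein-coding genes. The C2H2 finger pattern was found between 0 and 31 times per protein, with a median of 12, and a KRAB pattern in 159 members. It was not matched in 34 members, and 1 had no coding transcript. Of the 236 ZNF genes kept on other chromosomes, 91 had the KRAB pattern.

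The 5 members with the highest input level per kb of exon were ZNF428, which had 1 finger, at 52.2 CPM per kb, ZNF358 at 30.3, ZNF146, a protein made almost wholly of fingers, at 26.7, ZNF787 at 22.8 and ZNF580 at 20.9. The median member was at 1.5 CPM per kb. Except for ZNF146, with 41.7% GC, these 5 were GC-rich, at 60.0% to 68.7%. At the other end, the filter decided by few reads: ZNF888 was kept with 15, 11 and 10 counts in the PEG libraries and ZNF14 with 8, 22 and 10, whereas ZNF20, with 6, 17 and 9, and ZNF564, with 17, 7 and 9, were not. Of the 57 genes not kept, 9 had no read in any library, 39 reached the minimum in no condition and 10 failed only in PEG.

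**Figure D1:**
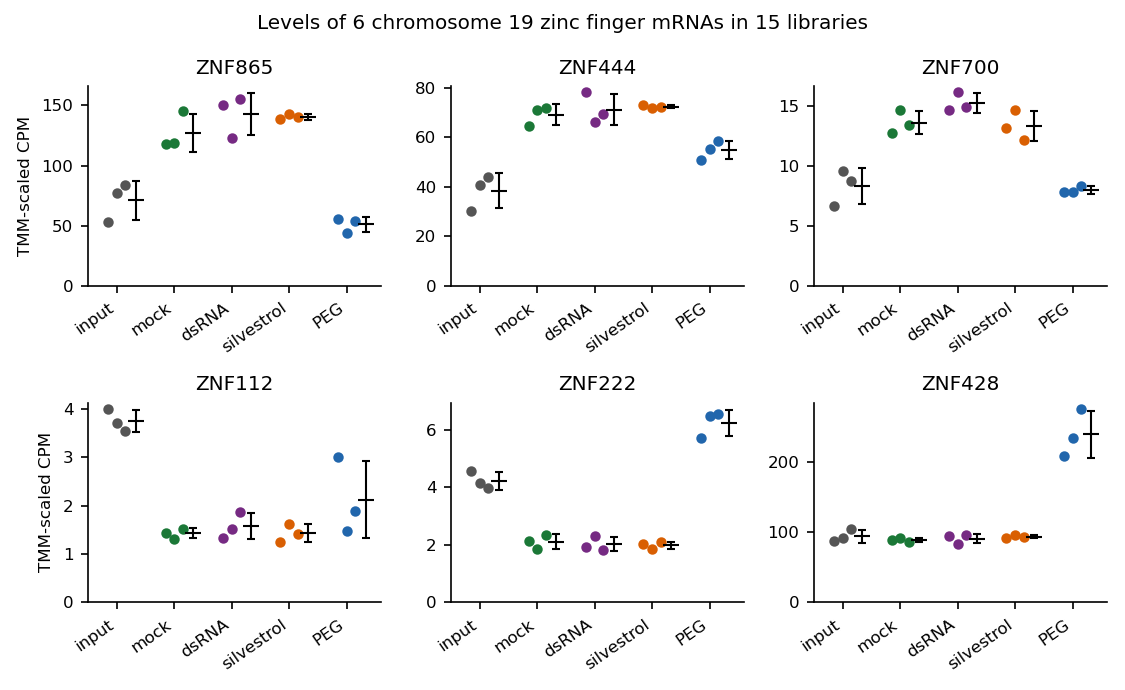
TMM-scaled CPM (linear axes from 0) of 6 members in 15 libraries, a point per replicate, with the mean and SD of 3 replicates as a bar and whiskers. ZNF865, ZNF444 and ZNF700 were higher and ZNF112 and ZNF222 lower in mock, dsRNA and silvestrol than in input, while ZNF222 and ZNF428 were highest in PEG.

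The first comparisons asked which of these mRNAs were over- or under-represented in each pellet relative to the extract. In the mock pellet 32 of 194 members (16.5%) were lower than in input and 15 (7.73%) were higher, by the quasi-likelihood test of edgeR at a p of 0.05 adjusted over all 16612 genes (Benjamini-Hochberg). Over all genes tested 15.8% were lower and 17.6% higher. The median log2 fold change of the members was -0.19, with 69 of 194 above 0, and 81 members had an unadjusted p under 0.05. ZNF genes on other chromosomes stood at a median of 0.03, with 11.9% lower and 16.9% higher. The 3215 protein-coding genes of like length and level, whose exon length (2754 to 8401 nt) and input level (2.05 to 27.1 CPM) lay between the members' 10th and 90th percentiles, stood at 0.05, with 10.2% lower and 19.8% higher. With like GC content required as well, 2232 genes stood at -0.01, with 10.9% lower and 14.8% higher. These genes lay inside the members' ranges but were not matched within them. Their median GC content was 47.4% against 44% in the members, and their median input level 11.6 CPM against 7.81 CPM. In dsRNA, silvestrol and PEG 15.3%, 13.6% and 26.2% of them were lower, and 18.1%, 16.8% and 18.2% higher.

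With the replicate number as a block, 70 members (36.1%) were lower and 29 (14.9%) higher in mock, against 30.1% and 32.5% of all genes. A correction for GC content left 23 lower and 16 higher and a median of -0.07, and scaling by library size alone gave 23 lower and 18 higher. The shares of all genes called in these 2 fits and in those that leave out a library are not given, here and for the other pellets. A change in such a count may therefore be shared by genes in general. Leaving out input replicate 1 gave 37 lower and 14 higher. The counts moved more without other libraries: 9 members were lower and 5 higher without mock replicate 3, 12 and 6 without mock replicate 2, 13 and 7 without input replicate 2, and 15 were lower without input replicate 3.

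In the dsRNA pellet 51 members were lower than in input (26.3%) and 18 were higher (9.28%), where 19.6% of all genes were lower and 21.1% higher. The median was -0.25 and 52 of 194 members lay above 0, while the genes of like length and level stood at 0.06 (14.6% lower, 23.5% higher) and the ZNF genes of other chromosomes at 0.04. With the replicate block 78 members (40.2%) were lower and 24 (12.4%) higher, against 29.1% and 31% of all genes. The GC correction left 24 lower and 13 higher, with a median of -0.12. Without dsRNA replicate 3 or without input replicate 2, 17 members were lower, without dsRNA replicate 2 there were 23, and without input replicate 3 there were 25.

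In the silvestrol pellet 42 members (21.6%) were lower and 21 (10.8%) higher, against 18.1% and 19.4% of all genes. Their median was -0.21 and 69 lay above 0, while genes of like length and level stood at 0.05 (12.6% lower, 22.3% higher) and the ZNF genes of other chromosomes at 0.02. With the replicate block 70 (36.1%) were lower and 27 (13.9%) higher, against 28.7% and 30.8% of all genes. A GC correction gave 15 lower and 20 higher at a median of -0.08, against a median of 0.02 for all genes in that fit. Scaling by library size alone gave 24 lower and 22 higher. Fewer were called without silvestrol replicate 3 (10 lower, 13 higher), without silvestrol replicate 2 (12 lower, 8 higher), without input replicate 3 (13 lower) and without input replicate 2 (15 lower).

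The PEG pellet had the lowest median of the 4, -0.36, with 66 members (34.0%) lower and 17 (8.76%) higher, against 25.9% and 25.5% of all genes. Genes of like length and level stood at -0.10 (26.6% lower, 19.1% higher) and the ZNF genes of other chromosomes at -0.41, with 44.9% lower and 11% higher, a median near that of the chromosome 19 members. The other protein-coding genes of chromosome 19 stood at 0.32, and they were above 0 in mock, dsRNA and silvestrol as well, at 0.22, 0.27 and 0.27. Scaling by library size alone put the median of all genes at -0.36 and gave 108 members lower and 6 higher at a median of -0.70. The distance of the members' median from that of all genes was -0.35 with TMM and -0.34 with library size. The GC correction left 52 lower and 12 higher with a median of -0.21. Without PEG replicate 2 or PEG replicate 3 only 6 members were higher, without PEG replicate 1 there were 11 and without input replicate 2 there were 9.

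**Figure D2:**
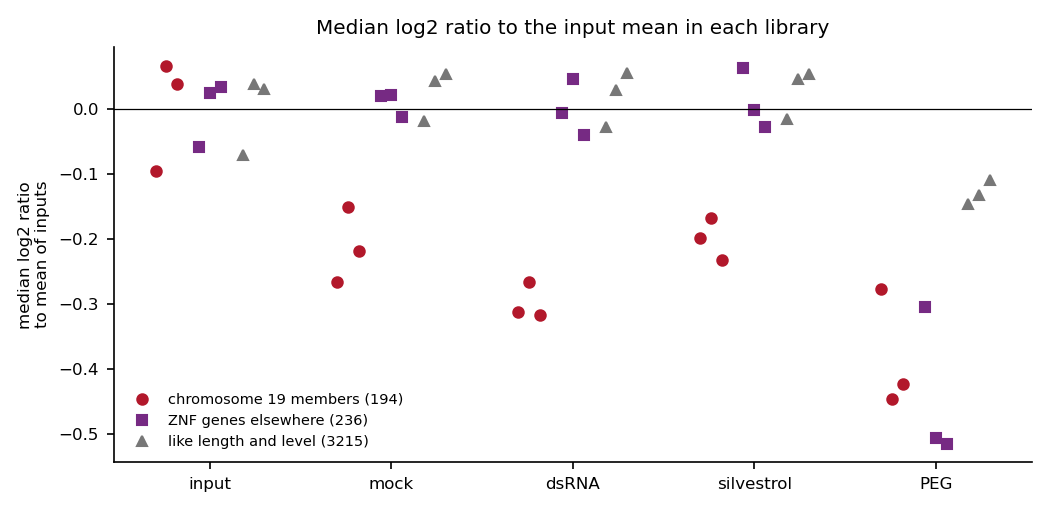
Median log2 ratio of TMM-scaled levels to the mean of the inputs (vertical axis), 1 marker per library and gene group, for the 194 members, the 236 ZNF genes elsewhere and the genes of like length and level, by condition. The members lay at or below -0.151 in all pellet libraries, and the ZNF genes elsewhere fell away from 0 in PEG only.

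Per library, the members' median log2 ratio to the mean of the inputs lay between -0.266 and -0.151 in mock, -0.317 and -0.266 in dsRNA, -0.232 and -0.167 in silvestrol, and -0.445 and -0.277 in PEG. The 3 input libraries spanned -0.0953 to 0.0659, so no pellet library overlapped them. For genes of like length and level the 9 libraries of mock, dsRNA and silvestrol lay between -0.0274 and 0.0547, within the span of their inputs (-0.0706 to 0.0386) except at its upper end. These 4 comparisons share the 3 input libraries and are not independent of each other. Separate cultures are not described beyond the replicate label, so p-values measure the spread between these samples.

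Members with GC-rich exons went the other way from the rest. In dsRNA against input, of 35 members with at least 50% GC 11 were higher and 1 was lower (median 0.16), while of 97 with 40 to 45% GC 2 were higher and 35 lower (median -0.38). The 41 members between 45 and 50% stood at -0.15 and the 21 under 40% at -0.44. The other protein-coding genes stood in the same order, at 0.38, -0.14, -0.28 and -0.28 from 50% or more down to under 40%. Of the members with 50% or more 31.4% were higher, against 38.4% of the other protein-coding genes in that range, and of those with 40 to 45% 36.1% were lower, against 33.9%. In mock the counts higher and lower were 10 and 1 at 50% or more and 3 and 19 at 40 to 45%. In silvestrol they were 12 and 1, and 2 and 28. Over all genes 17.6% were higher and 15.8% lower in mock, and 19.4% and 18.1% in silvestrol. The share lower in mock at 40 to 45% GC was not far from that of all genes. Across the 194 members the Spearman correlation of log2 fold change with exon GC content was 0.386 in mock, 0.436 in dsRNA, 0.405 in silvestrol and 0.381 in PEG, as a description over genes that share libraries, against 0.434, 0.474, 0.469 and 0.339 over the other protein-coding genes. The part of GC content in these differences was not tested beyond the correction given above.

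**Figure D3:**
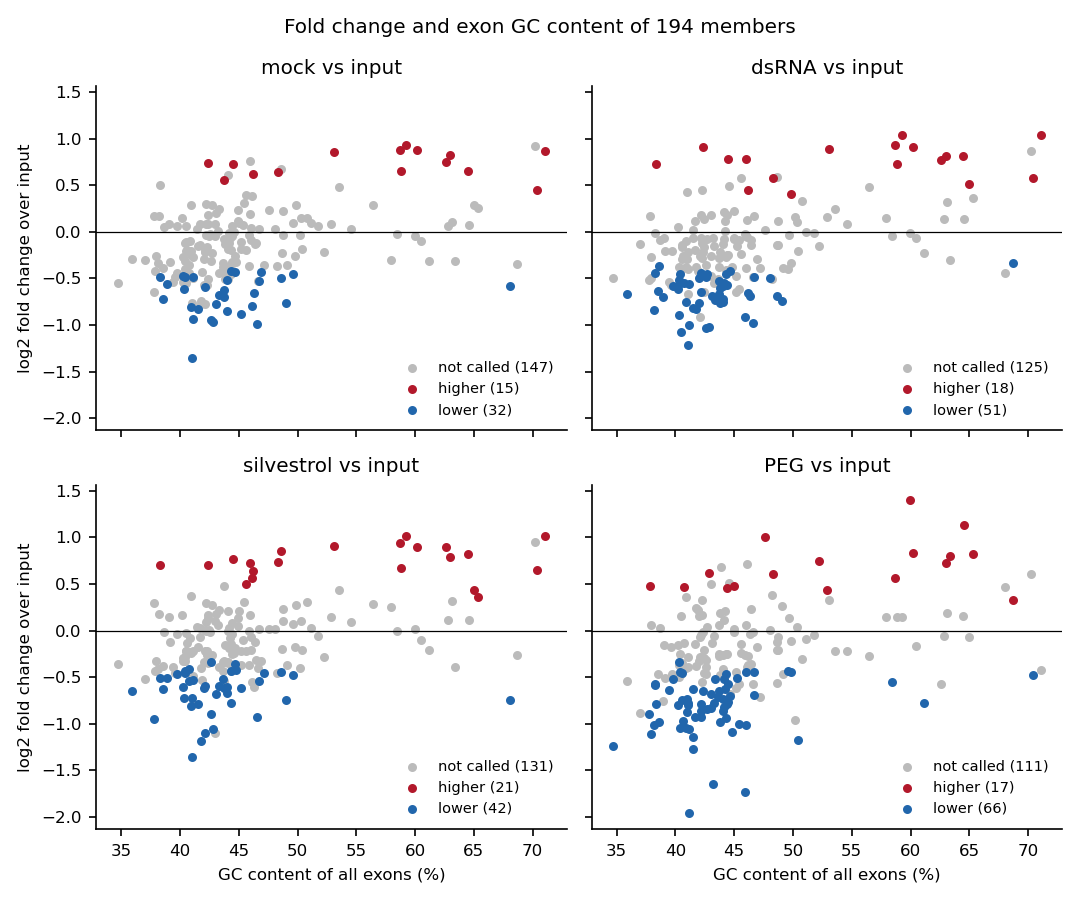
Log2 fold change over input (vertical axis) against the GC content of all exons in percent (horizontal axis) for the 194 members, 1 panel per pellet and 1 point per gene, red where higher and blue where lower by the adjusted test, grey where not called. Most points under 45% GC lay below 0 and those at 50% or more lay around or above it.

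The 34 members without the KRAB pattern stood above the 159 with it. In dsRNA 8 of the 34 were higher and 3 lower (median 0.12), against 10 and 48 of the 159 (median -0.34). In percent, 23.5 of the 34 were higher and 8.82 lower, and 6.29 and 30.2 of the 159, beside 21.1 and 19.6 of all genes, so the share of higher members without the pattern was near that of all genes. Mock gave 7 and 2 (0.06) against 8 and 30 (-0.21), silvestrol 9 and 3 (0.05) against 12 and 39 (-0.24), and PEG 9 and 9 (-0.07) against 8 and 57 (-0.39). Over all genes 17.6% were higher and 15.8% lower in mock, 19.4% and 18.1% in silvestrol, and 25.5% and 25.9% in PEG. In PEG both shares of the 34 were near those of all genes, as was their share higher in mock. The share of the 159 that was lower in mock was not far from that of all genes. Members without the pattern included GC-rich ones such as ZNF358 (68.7%) and AT-rich ones such as ZNF260 (37.9%). The parts of the pattern and of GC content were not told apart. The pattern is approximate, and known KRAB proteins such as ZNF473 were not matched.

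ZNF865, a GC-rich member without the KRAB pattern, rose in mock, dsRNA and silvestrol. It stood at 52.9, 76.8 and 84.0 CPM in the inputs, 118, 119 and 146 in mock, 150, 123 and 156 in dsRNA, 138, 143 and 140 in silvestrol, and 55.8, 43.7 and 53.7 in PEG. All 9 libraries of the first 3 pellets lay above all inputs, and PEG overlapped the inputs. The log2 fold changes were 0.87 ± 0.19 (SE, adjusted p = 0.0124) in mock, 1.04 ± 0.19 (0.00481) in dsRNA and 1.01 ± 0.17 (0.00433) in silvestrol. Without mock replicate 3 the mock call was lost (0.76, adjusted p = 0.0552), and under the GC correction all 3 were, at 0.20, 0.28 and 0.26 (adjusted p = 0.21, 0.0813 and 0.101).

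ZNF444, a SCAN-domain zinc finger protein with 4 fingers, had 30.4, 40.8 and 44.1 CPM in the inputs, 64.4, 71 and 72 in mock, 78.3, 66.1 and 69.2 in dsRNA, 73.0, 71.8 and 72.4 in silvestrol, and 50.9, 55.3 and 58.4 in PEG. No pellet library overlapped an input. Its log2 fold changes were 0.88 ± 0.15 (SE, adjusted p = 0.00643), 0.93 ± 0.16 (0.00411), 0.94 ± 0.15 (0.00355) and 0.56 ± 0.14 (0.0102) in that order of pellets. The PEG call was lost without PEG replicate 2 (0.51, adjusted p = 0.0645), without PEG replicate 3 (0.47, adjusted p = 0.0806) and under the GC correction (0.30, adjusted p = 0.053).

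ZNF446, another SCAN-domain gene and one that shares exonic bases with ZNF324 and with SLC27A5 on the opposite strand, was at 4.44, 8.12 and 9.57 CPM in the inputs and at 10.2 to 14.9 CPM in all 12 pellet libraries. The groups did not overlap, and the first input was the lowest library. Its rises were 0.88 ± 0.27 in mock (SE, adjusted p = 0.0419), 0.91 ± 0.25 in dsRNA (0.0232), 0.90 ± 0.25 in silvestrol (0.0246) and 0.83 ± 0.25 in PEG (0.0221). The mock call was lost without mock replicate 2, mock replicate 3 or input replicate 2 (adjusted p = 0.12, 0.132 and 0.084), and the PEG call without PEG replicate 2 or 3 (adjusted p = 0.117 and 0.123). Under the GC correction both were lost, at 0.51 and 0.55 (adjusted p = 0.115 and 0.0592).

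ZNF324B, ZNF71 and ZNF700 carry the KRAB pattern and rose as well. ZNF324B was at 3.32, 4.33 and 4.43 CPM in the inputs and at 6.48 to 9.95 CPM in the 9 libraries of mock, dsRNA and silvestrol, with log2 fold changes of 0.93 ± 0.18 (SE, adjusted p = 0.00977), 1.04 ± 0.20 (0.00569) and 1.01 ± 0.21 (0.0077). ZNF71 went from 21.4, 26.9 and 25.9 CPM to 48.1, 43.4 and 44.4 CPM in silvestrol, a change of 0.90 ± 0.13 (adjusted p = 0.0027). Neither overlapped the inputs in these pellets. ZNF700, with 18 fingers and 42.4% exon GC, stood at 6.60, 9.53 and 8.74 CPM in the inputs and 14.6, 16.1 and 14.8 CPM in dsRNA, without overlap, a change of 0.91 ± 0.16 (adjusted p = 0.00475) that was 1.14 under the GC correction. In PEG ZNF700 stood at 7.81, 7.76 and 8.32 CPM, inside the range of the inputs, with a log2 fold change of -0.01 ± 0.16.

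The largest fall in the first 3 pellets was that of ZNF112, a KRAB gene of the 19q13.31 cluster. It stood at 4.00, 3.71 and 3.54 CPM in the inputs, 1.44, 1.32 and 1.52 in mock, 1.33, 1.51 and 1.86 in dsRNA, 1.25, 1.62 and 1.42 in silvestrol, and 3.00, 1.48 and 1.88 in PEG. No pellet library overlapped an input, and PEG was the most spread of the pellets. It fell by 1.36 ± 0.18 (log2, SE; adjusted p = 0.00361) in mock, by 1.22 ± 0.20 (0.00384) in dsRNA, by 1.36 ± 0.20 (0.00288) in silvestrol and by 0.80 ± 0.28 (0.0372) in PEG.

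ZNF222, a KRAB gene of the same cluster, was at 4.58, 4.14 and 3.96 CPM in the inputs, 2.13, 1.84 and 2.35 in mock, 1.92, 2.29 and 1.83 in dsRNA, 2.01, 1.85 and 2.08 in silvestrol, but 5.71, 6.48 and 6.54 in PEG. The first 3 pellets lay below all inputs and PEG above them. The log2 fold changes were -0.97 ± 0.18 (SE, adjusted p = 0.00823), -1.02 ± 0.19 (0.00502), -1.05 ± 0.18 (0.00408) and 0.61 ± 0.17 (0.0159). PEG against mock gave 1.64 ± 0.19 (adjusted p = 6.17e-05), the largest rise in that comparison among members.

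ZNF816 was at 6.78, 10.2 and 10.2 CPM in the inputs and at 3.70 to 5.67 CPM in the 9 libraries of mock, dsRNA and silvestrol, all below the inputs. It fell by 0.95 ± 0.21 in mock (log2, SE; adjusted p = 0.0135), which was lost without mock replicate 3 (adjusted p = 0.0503), and by 1.03 ± 0.21 in dsRNA (0.00696) and 0.90 ± 0.22 in silvestrol (0.0154). Its exons are shared with the read-through gene ZNF816-ZNF321P. ZNF57, in a separate run near the end of the short arm, fell by 0.99 ± 0.19 in mock (adjusted p = 0.00928), from 3.82, 4.29 and 4.73 CPM to 1.77, 2.41 and 2.13 CPM, and stood at 3.98, 3.96 and 4.36 CPM in PEG. ZNF888 fell by 1.00 ± 0.22 in dsRNA (adjusted p = 0.00876), from 3.01, 2.51 and 2.88 CPM to 1.36, 1.56 and 1.14 CPM, but was counted over 551 nt only, shorter than its coding region of 2154 nt.

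Some calls of low-level members rested on single libraries. ZNF285 fell by 1.10 ± 0.36 in silvestrol (log2, SE; adjusted p = 0.0425), a call that was lost without silvestrol replicate 1 or 3 and without input replicate 2 or 3 (adjusted p = 0.0914 to 0.121). ZNF441 fell by 0.95 ± 0.25 there (adjusted p = 0.0204), and the call was lost without silvestrol replicate 3 (0.0756) or input replicate 3 (0.0763). Both calls were lost under the GC correction (adjusted p = 0.099 and 0.0733).

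In PEG the largest rises, apart from that of ZNF446, were in other members. ZNF444, ZNF446, ZNF653 and ZNF77 were higher in all 4 pellets. ZNF428, with 1 finger and the highest input level per kb, was at 86.4, 91.2 and 103 CPM in the inputs, 89.0, 91.2 and 85.9 in mock, 93.7, 83 and 94.9 in dsRNA, 91.1, 95.5 and 92.2 in silvestrol, and 208, 234 and 274 in PEG. PEG lay above every other library, and the other pellets overlapped the inputs. The log2 fold change was 1.40 ± 0.14 (SE, adjusted p = 0.000255) against input and 1.5 ± 0.13 (adjusted p = 1.25e-05) against mock. The gene overlaps SRRM5 on the opposite strand.

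ZNF524, with 4 fingers, rose from 7.95, 11.2 and 11.8 CPM to 18.6, 23.6 and 23.5 CPM in PEG (1.13 ± 0.17, SE, adjusted p = 0.000937), and ZNF846, a KRAB gene, from 2.69, 3.25 and 3.15 CPM to 5.71, 5.59 and 6.44 CPM (1.01 ± 0.17, adjusted p = 0.00175). ZNF787 rose from 91.8, 74.9 and 84.6 CPM to 141, 140 and 151 CPM (0.82 ± 0.13, adjusted p = 0.00113), a call lost under the GC correction (0.39, adjusted p = 0.0676). In none of the 3 did PEG overlap the inputs. ZNF358 rose by 0.32 ± 0.12 (adjusted p = 0.0426), lost without any one of the 3 PEG libraries or without input replicate 2 or 3 (adjusted p = 0.0632 to 0.239) and turned to -0.03 with library size alone and -0.19 under the GC correction. ZNF580 did not pass the test at -0.06 ± 0.11 (adjusted p = 0.69).

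The largest falls in PEG were those of ZNF888, ZNF417, ZNF699 and ZNF616, all with the KRAB pattern. ZNF417 went from 11.1, 10.4 and 9.90 CPM to 4.81, 2.27 and 2.33 CPM (-1.73 ± 0.28, SE, adjusted p = 0.0013), ZNF616, with 21 fingers, from 6.46, 5.96 and 6.03 CPM to 3.38, 1.83 and 2.33 CPM (-1.27 ± 0.24, adjusted p = 0.00267), and ZNF888 from 3.01, 2.51 and 2.88 CPM to 1.13, 0.544 and 0.495 CPM (-1.96 ± 0.33, adjusted p = 0.00157). All 3 lay below the inputs in each PEG library, and PEG replicate 1 was the highest of the PEG libraries in each. ZNF699 went from 4.44, 4.29 and 4.81 CPM to 2.86, 0.643 and 0.941 CPM (-1.65 ± 0.45, adjusted p = 0.0138), and this call was lost without PEG replicate 3 (-1.44, adjusted p = 0.0629).

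Finger number and transcript length moved with the PEG values. Of 12 members with fewer than 6 fingers, 9 were higher in PEG than in input and 0 were lower (median 0.64). The 74 members with 6 to 11 fingers had 6 higher and 23 lower (-0.23), the 80 with 12 to 17 had 2 and 32 (-0.44), and the 27 with 18 or more had 0 and 11 (-0.43). Over all genes 25.5% were higher and 25.9% lower in PEG, so the share lower with 6 to 11 fingers was not far from that of all genes. Of the 74 ZNF genes on other chromosomes with fewer than 6 fingers, 12 were higher and 32 lower, at a median of -0.33. By exon length the 25 members under 3 kb stood at 0.02, the 72 of 3 to 5 kb at -0.22, the 69 of 5 to 8 kb at -0.44 and the 28 of 8 kb or more at -0.55, against 0.65, 0.09, -0.26 and -0.51 in the other protein-coding genes. Across the members the Spearman correlation of the PEG log2 fold change was -0.356 with exon length (n = 194) and -0.314 with finger number (n = 193). GC content itself fell with length (-0.33) and with finger number (-0.271), so the parts of the 3 features were not told apart.

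**Figure D4:**
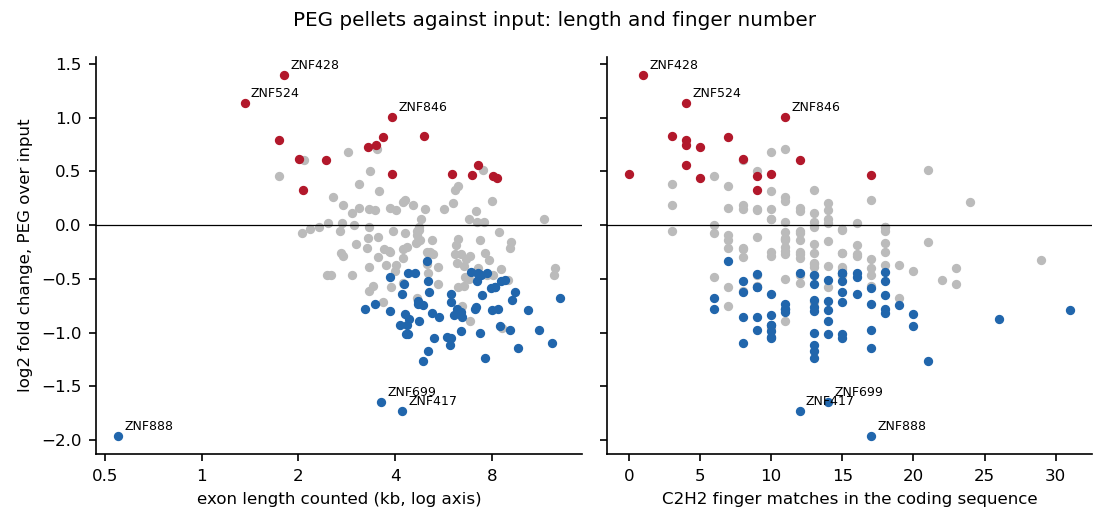
Log2 fold change of PEG over input (vertical axis) for the members against exon length and against the number of C2H2 fingers, 1 point per gene, red where higher, blue where lower by the adjusted test and grey otherwise. The members with fewer than 6 fingers were mostly red and those with 18 or more held no red point.

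Against mock, PEG gave 24 members higher (12.4%) and 49 lower (25.3%), where 31.3% and 32.2% of all genes were called. The median was -0.13, against -0.16 for genes of like length and level and -0.42 for the ZNF genes of other chromosomes. ZNF581, with 4 fingers, rose from 13.1, 20.9 and 21.9 CPM in mock to 34.4, 45.9 and 38.6 CPM in PEG (1.17 ± 0.19, SE, adjusted p = 0.000448), without overlap, but it shares exonic bases with ZNF580 and CCDC106. ZNF417 fell by 1.30 ± 0.28 (adjusted p = 0.00245) and ZNF497, with 14 fingers, by 1.26 ± 0.28 (adjusted p = 0.00265), from 5.72, 4.92 and 6.58 CPM to 3.23, 2.23 and 1.49 CPM. ZNF699 fell by 1.59 ± 0.44 (adjusted p = 0.00978), lost without PEG replicate 3 (adjusted p = 0.0604). With library size alone 109 were lower and 10 higher and all genes stood at -0.50. Without PEG replicate 2 or 3 the lower count was 32 or 31, and the median was -0.03 without PEG replicate 2.

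The members of known role moved in different directions. ZNF91, which represses SVA retrotransposons and has 31 fingers and 38.3% exon GC, had 3.46, 4.68 and 3.43 CPM in the inputs, 5.13, 5.61 and 5.29 in mock, 6.63, 6.73 and 5.33 in dsRNA, 6.68, 6.35 and 5.44 in silvestrol, and 2.78, 1.78 and 2.03 in PEG. The first 3 pellets lay above and PEG below all inputs. The log2 fold changes were 0.50 ± 0.18 (SE, adjusted p = 0.0689, and 0.00415 with the replicate block), 0.73 ± 0.20 (0.0202), 0.70 ± 0.19 (0.023) and -0.79 ± 0.25 (0.0252). The dsRNA call was lost without dsRNA replicate 2 or input replicate 3 (adjusted p = 0.0756 and 0.0781), the silvestrol call without silvestrol replicate 1 or 2 or input replicate 3 (0.0518, 0.0778 and 0.0922), and the PEG call without PEG replicate 2 or 3 or input replicate 2 (0.0891, 0.0788 and 0.113) and under the GC correction (0.159).

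ZNF146 was at 120, 109 and 103 CPM in the inputs and 56.3, 51.6 and 61.4 CPM in PEG, a fall of 0.93 ± 0.13 (log2, SE; adjusted p = 0.00073) without overlap, and did not pass the test in the other pellets (-0.14, -0.19 and -0.07). ZNF224, a KRAB repressor that acts as a cofactor of WT1, fell by 0.78 ± 0.18 in PEG (adjusted p = 0.00694), and the call was lost with the replicate block and the GC correction together (adjusted p = 0.0561). ZNF274, which directs SETDB1 to the 3′ ends of zinc finger genes, was higher in PEG by 0.44 ± 0.13 (adjusted p = 0.0231), with 27.7, 35.6 and 37.3 CPM in the inputs and 43.1, 47.1 and 41.2 CPM in PEG. That call was lost without any of the 3 PEG libraries, without input replicate 2 (adjusted p = 0.0512 to 0.153) and under the GC correction (0.0846).

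ZNF473, which takes part in histone pre-mRNA processing, fell by 0.45 ± 0.13 in mock (log2, SE; adjusted p = 0.0294), by 0.47 ± 0.15 in silvestrol (0.0354) and by 0.43 ± 0.13 in PEG (0.0205), and stood at -0.40 ± 0.14 in dsRNA (0.0564, and 0.024 with the replicate block). Each of the 3 calls was lost without at least 3 of the 6 libraries in turn, mock replicates 2 and 3, silvestrol replicates 2 and 3, PEG replicate 2 and input replicates 2 and 3 among them (adjusted p = 0.0682 to 0.126). ZNF331, an imprinted gene, was higher in dsRNA (0.41 ± 0.13, adjusted p = 0.0329), a call lost without any one of 5 of the 6 libraries (adjusted p = 0.0588 to 0.131), the exception being dsRNA replicate 1. In PEG ZNF331 fell by 0.44 ± 0.13 (adjusted p = 0.0204), lost without PEG replicate 2 (0.0564) or input replicate 2 (0.0718). ZNF304 fell by 0.45 ± 0.13 in PEG (adjusted p = 0.0201), lost without PEG replicate 3 or input replicate 2 or 3 (0.0665 to 0.0835). ZNF93 did not pass the filter.

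Values also differed along the chromosome. The members fell into 17 runs with gaps under 1 Mb. The 22 members at chr19:43525497-45076588, the run that holds ZNF112 and ZNF222, had a median exon GC of 43.1%, with 0 higher and 7 lower in mock (-0.36), 0 and 8 in dsRNA (-0.45), 0 and 10 in silvestrol (-0.34), and 4 and 9 in PEG. The 34 members at chr19:51571298-53580269, 33 of them with the KRAB pattern, had 0 higher and 22 lower in PEG (-0.65), and 0 and 9, 1 and 11, and 0 and 9 in mock, dsRNA and silvestrol. The 57 members at chr19:55476332-58481230, with a median GC of 48.6%, had 9 and 9, 10 and 12, and 13 and 7 in those pellets (-0.03, -0.07 and 0.01), and 7 and 12 in PEG. Over all genes 17.6% were higher and 15.8% lower in mock, 21.1% and 19.6% in dsRNA, 19.4% and 18.1% in silvestrol, and 25.5% and 25.9% in PEG. The mock and dsRNA counts of the run of 57 were therefore near the shares of all genes. GC content and run moved together, and their parts were not tested separately.

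The pellets of mock, dsRNA and silvestrol were then compared with each other. By edgeR's quasi-likelihood test without a block, 0 members passed in dsRNA against mock, silvestrol against mock or dsRNA against silvestrol, as did 0 of all genes, 0% in each direction. At an unadjusted p under 0.05 there were 13, 1 and 15 members and 374, 35 and 330 of all genes, and DESeq2 called 1, 0 and 0 members, the 1 being ZNF587B. With the replicate number as a block, which takes out what libraries of the same number share, 12 members (6.19%) were lower in dsRNA than in mock and 0 higher, against 2.65% and 0.15% of all genes, and 13 members (6.7%) were lower in dsRNA than in silvestrol and 0 higher, against 2.49% and 0.235%. Silvestrol against mock gave 0 members, and 0.012% of all genes higher and 0% lower, with 9 members at an unadjusted p under 0.05. The comparisons share libraries in pairs.

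The 12 lower in dsRNA than in mock were ZNF844, ZNF101, ZNF587B, ZNF417, ZNF552, ZNF440, ZNF587, ZNF570, ZNF320, ZNF329, ZNF426 and ZNF562. ZNF432 was among the 13 lower than in silvestrol, a comparison that shares the dsRNA libraries. ZNF587B, ZNF844, ZNF417, ZNF320 and ZNF552 were named by the smallest unadjusted p in these same comparisons, so their values picked them too. The others are named after their values were seen. Each of the 12 was lower in 3 of 3 pairs, with log2 differences from -0.77 to -0.34 against mock. The block fit picked them on these same libraries and favours genes that fall in every pair, so this adds no support. The exon GC of the 12 ran from 42.2% to 48.8%, with a median of 44.6% against 44% in the 194 members. The KRAB pattern was found in 11 of the 12, as it was in 159 of the 194. In the run nearest the end of the long arm, which held more members than any other run, lay 5 of the 12. ZNF417, ZNF587 and ZNF587B, whose sequences are shown above, were among these 5. Whether any of these traits sets the 12 apart from the other members was not tested.

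ZNF587B had 8.95, 10.4 and 9.49 CPM in dsRNA, 12.9, 15.6 and 14.8 in mock, and 12.4, 15.7 and 14.4 in silvestrol, replicates 1 to 3 in order. The dsRNA libraries lay below all 6 others. The log2 difference was -0.58 ± 0.08 against mock (SE, adjusted p = 4.07e-06 with the block and 0.747 without it; DESeq2 0.0444) and -0.55 ± 0.08 against silvestrol (1.5e-05 with the block and 0.957 without). ZNF844 had 2.44, 2.98 and 2.42 CPM in dsRNA, 3.88, 4.77 and 4.80 in mock, and 3.96, 5.02 and 3.81 in silvestrol. It was also without overlap, with -0.77 ± 0.14 against mock (adjusted p = 0.000108 with the block and 0.782 without). ZNF320 had 21.0, 21.1 and 21.7 CPM in dsRNA, 25.9, 30.5 and 27.5 in mock, and 24.8, 30.0 and 28.2 in silvestrol, with a log2 difference from mock of -0.40 ± 0.07 (adjusted p = 0.000176 with the block and 0.989 without). ZNF417 had 5.77, 5.64 and 4.80 CPM in dsRNA against 8.55, 7.65 and 7.53 in mock (adjusted p = 0.00035 with the block and 0.988 without), and ZNF587, whose reads can be its own or those of ZNF417, 22.9, 25.2 and 19.9 against 30.2, 32.7 and 27.2 (7.52e-05 with the block).

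For silvestrol against mock the members with the smallest unadjusted p were ZNF799, ZNF582, ZNF536 and ZNF69, each with an adjusted p of 1 by edgeR. ZNF799 had 0.884, 1.25 and 1.15 CPM in silvestrol and 1.49, 1.91 and 1.52 in mock, without overlap at a low level. ZNF69 had 2.58, 2.93 and 2.75 against 3.4, 2.88 and 4.6 CPM, which overlapped.

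The mRNAs of the TRIM28 corepressor pathway, through which KRAB proteins act, were all measured, 28 of 28. In mock 5 were higher and 8 lower than in input, in dsRNA 7 and 9, in silvestrol 6 and 8, and in PEG 1 and 10. In percent of the 28 these were 17.9 and 28.6, 25 and 32.1, 21.4 and 28.6, and 3.57 and 35.7, against 17.6 and 15.8, 21.1 and 19.6, 19.4 and 18.1, and 25.5 and 25.9 of all genes. The rises in mock and silvestrol were thus near the share of all genes, and those in dsRNA were not far from it. TRIM28 itself, also encoded on chromosome 19, stood at 453 ± 25.9 CPM (SD, n = 3) in input, 860 ± 82.1 in mock, 873 ± 85.2 in dsRNA, 908 ± 79.3 in silvestrol and 515 ± 47.2 in PEG, with log2 fold changes of 0.96 ± 0.12 (SE, adjusted p = 0.0036), 0.99 ± 0.13 (0.00249), 1.03 ± 0.13 (0.00244) and 0.23 ± 0.13 (0.171). SETDB1, the methyltransferase, stood at 34.1 ± 4.10 CPM in input and 44.1 ± 4.09 in dsRNA (0.41 ± 0.14, adjusted p = 0.042), and did not pass the test in mock (0.29), silvestrol (0.29) or PEG (-0.09). The largest rise in mock, dsRNA and silvestrol was that of DNMT1, a DNA methyltransferase, at 1.01, 1.14 and 1.06. The largest fall in these was that of SUMO2, at -0.98, -1.06 and -1.08. In PEG the only one higher by the adjusted test was MPHOSPH8, a HUSH complex subunit, at 0.79, and the largest fall was that of TASOR at -0.93.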

How the data were processed

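Poly(A) RNA was sequenced in 15 libraries. Per the labels and the study's methods, the authors trimmed reads with Trimmomatic 0.36, aligned them to GRCh38 with STAR 2.5.2b and deposited raw read counts per gene from featureCounts (Subread 1.5.2); the annotation release and strand setting are not given in the sources used here. Of 57500 genes, the 16612 that reached 10 counts or more in 2 or 3 replicates of every condition were tested, after the study's filter. Depth ran from 15341973 to 46939993 counts, so members near the filter rest on few reads.

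Each comparison was fitted on its 6 libraries with edgeR 4.0.16 (quasi-likelihood F test, TMM) in R 4.3.3, adjusted by Benjamini-Hochberg over all genes tested, at 0.05. A standard error is the log2 fold change divided by the square root of F. The study's methods used DESeq2 and mention no block. DESeq2 1.42.0 was an alternative, with DESeq2 size factors, library size alone, no filter and 1 fit over all 15 libraries. Further alternatives were a GC offset (a lowess fit of span 0.3), the replicate block and leaving out each library. Libraries of the same number in different groups deviated together (correlations of 0.131 to 0.861, against -0.746 to 0.583 for other numbers). These ranges overlap. Replicate 1 stood apart, while numbers 2 and 3 also correlated with each other: input 2 had 0.583 with mock 2 and 0.583 with mock 3. The pairing of numbers 2 and 3 in the block was therefore taken from the labels and not shown by these values.

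GC content, coding regions and fingers came from GENCODE 29 (GRCh38), whose gene IDs matched 56898 of the file's genes; 184 members had the same start and end there. Members and gene lists were chosen with earlier results of these data known. Named members were the 5 with the highest input level per kb, the 4 largest rises and falls per pellet past the threshold without overlap and with a mean of at least 1 CPM, the smallest unadjusted p or largest changes between pellets, and members of known role; others are said to be named after their values were seen. The fits were tested on simulated data.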

Additional observations from a re-analysis of the deposited data

How the results depend on the processing

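Of 336 counts and medians recomputed over the alternatives, 278 stayed within 1.5 times (counts) or the spread (medians), and all 20 of the values for like genes did. Of 1316 values for named members 1117 kept their direction and side of the threshold, 56 passed it, 93 no longer did and 50 turned in sign. No median of the members against input turned in sign under any scaling tried.

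The replicate block was taken from the labelled numbers. With it, mock against input gave 29 members higher and 70 lower, dsRNA 78 lower and silvestrol 70 lower. It gave 12 lower in dsRNA against mock and 13 lower in dsRNA against silvestrol. With the block and GC offset together, mock gave 39 higher and 51 lower (median -0.0687), dsRNA 29 higher (-0.12), silvestrol 36 higher (-0.0939), PEG a median of -0.22, dsRNA against mock 11 lower and dsRNA against silvestrol 13 lower. The GC offset alone gave medians of -0.0684 in mock, -0.12 in dsRNA, -0.0769 in silvestrol and -0.21 in PEG, with 24 lower in dsRNA and 15 in silvestrol. DESeq2 gave 49 lower in mock and 1 lower in dsRNA against mock, and 1 fit over all 15 libraries gave 53 lower in mock. Library size alone gave 24 lower in silvestrol, 6 higher and 108 lower in PEG (-0.70), and 10 higher and 109 lower in PEG against mock (-0.59). Without a filter on low counts 10 were higher in PEG. The cause of these moves was not tested.

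Leaving out 1 library gave 5 to 14 higher and 9 to 37 lower in mock, 17 to 53 lower in dsRNA, 8 to 19 higher and 10 to 47 lower in silvestrol, 6 to 19 higher in PEG, and 31 to 58 lower in PEG against mock (median -0.188 to -0.0284). The median of dsRNA against silvestrol ran from -0.0784 to -0.00578.

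Named members turned in sign where their log2 fold change was near 0 or under the GC fits. In mock ZNF428 was 0.0121 with library size alone and -0.12 to 0.000236 leaving out 1 library. The GC offset, alone and then with the block, gave ZNF146 0.0554 and 0.0555, ZNF787 -0.322 and -0.304, and ZNF580 -0.419 and -0.421. Leaving out 1 library gave ZNF580 -0.0405 to 0.141, ZNF274 -0.0569 to 0.135 and ZNF304 -0.0613 to 0.0676, and ZNF304 was -0.0176 without the filter and -0.00367 in the fit over all libraries. In dsRNA ZNF428 was 0.0328 with library size alone and -0.072 to 0.0498 leaving out 1 library. Both GC fits gave ZNF146 0.0594 and 0.0596, ZNF787 -0.302 and -0.284, ZNF580 -0.424 and -0.424, and ZNF224 0.019 and 0.00432, the last -0.396 to 0.0623 leaving out 1 library. In silvestrol ZNF428 was -0.0211 without the filter, -0.0121 in the fit over all libraries and -0.0557 to 0.0649 leaving out 1, and ZNF304 -0.0284, -0.0184 and -0.0793 to 0.0521. Both GC fits gave ZNF428 -0.408 and -0.406, ZNF146 0.16 and 0.159, ZNF787 -0.281 and -0.258, ZNF580 -0.43 and -0.431, and ZNF224 0.00438 and 0.00753. In PEG ZNF358 was -0.0255 with library size alone and -0.19 and -0.187 under the GC fits. Depth limits the low members most, since those near the filter had about 10 counts in a PEG library.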
